A study of Mus musculus with 10 samples.

Results

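The genes described here are the subunits and regulators of the proteasome, taken as every protein-coding gene whose GRCm38 symbol begins with Psm, a letter from a to g and a digit. This rule found 50 of the 54838 gene identifiers in the count files, and 47 of them were measured well enough to be tested. The members were 7 alpha and 7 beta subunits of the 20S core, 5 immunoproteasome or tissue-specific core subunits, 6 ATPase and 11 non-ATPase subunits of the 19S particle, 5 activators, 1 inhibitor and 7 assembly chaperones. Psmc3ip matched the rule by its name alone, since it encodes a cofactor of meiotic recombination and no proteasome protein, and it is kept apart in the counts of classes. The 10 libraries were ribosome-bound RNA precipitated with EGFP-tagged L10a (TRAP) from male C57BL/6 mice about 10 weeks old, of the genotype Drd2-Cre;Eef1a1LSL.eGFPL10a/+. The groups were 5 libraries from the dorsal hippocampus and 5 from the ventral hippocampus, from which the ventral subiculum had been removed, and every library pooled the tissue of 5 mice. By the study methods the cut was made by length, with a shorter dorsal part and all of the remaining length as the ventral part. The hippocampi of the same animals were divided into both parts, so that dorsal and ventral pools came from a shared set of mice, but the sources used here do not state which pools share animals. Both groups therefore carried the same alleles and differed by region, and the labels name no treatment. The Drd2 promoter drives Cre in the mossy cells of the dentate hilus but also in sparse interneurons, so that the precipitates are enriched for mossy cells and not pure.

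The proteasome is the protease that degrades most proteins tagged with ubiquitin. Its barrel-shaped 20S core is made of rings of alpha subunits, which gate the entrance, and rings of beta subunits, some of which cut the substrate, and the 19S particle on its ends binds, unfolds and feeds in the tagged protein. In neurons proteasomes turn over synaptic proteins, and their subunits are usually made in fixed proportions because each complex needs a set number of every one. When many subunits are induced together, the transcription factor Nfe2l1 is a known regulator, which acts through antioxidant response elements in the promoters.

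Counts on genes ranged from 11138676 to 20594364 per library and did not separate the groups (exact permutation test, two-sided p = 0.421). A floor of 3 counts, which covers counting error only, corresponded to 0.142 to 0.282 CPM (counts scaled to a common library size with TMM factors, as in all values below unless stated). The share of read pairs on no gene was 27.0 ± 5.09% in the dorsal and 14.4 ± 2.997% in the ventral libraries (SD over 5 libraries each), with no overlap (exact permutation test, two-sided, p = 0.00794, which is the minimum for 5 against 5 libraries). The mossy cell marker list summed to 560 to 628 CPM in the dorsal and 1180 to 1416 CPM in the ventral libraries, where Calb2, the ventral mossy cell marker, made up much of the sum, and 3 of 8 tested genes passed the test as ventral-higher and 2 as dorsal-higher. Interneuron markers were abundant in both groups, at 3584 to 4613 and 4420 to 5629 CPM, and 7 of 10 were ventral-higher. Most of the interneuron sum came from Gad2, whose dorsal and ventral means were 2853 and 3174 CPM. Gad2 did not pass the test (edgeR adjusted p = 0.324). Oligodendrocyte markers stood at 2233 to 2593 CPM in the dorsal and 804 to 1474 CPM in the ventral libraries, with 3 of 8 dorsal-higher. Granule cell markers had 3 of 7 dorsal-higher genes (1345 to 1527 against 1082 to 1505 CPM), CA pyramidal markers 2 of 6 (241 to 326 against 199 to 250 CPM), and ependymal and choroid markers 2 of 4 (120 to 963 against 178 to 421 CPM). Astrocyte markers were 2 of 7 ventral-higher and 3 of 7 dorsal-higher (316 to 391 against 259 to 429 CPM), and endothelial markers 1 of 7 dorsal-higher (13.5 to 51.0 against 10.7 to 60.1 CPM). In bulk precipitates a smaller number of cells of one type and less RNA per cell cannot be told apart.

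Among the 47 tested members, 45 had a lower fitted level in dorsal than in ventral libraries. The median log2 fold change of dorsal over ventral was -0.54, against -0.0044 over all 16806 tested genes and -0.041 over the 13549 protein-coding ones. Without Psmc3ip, 44 of 46 tested members were lower in dorsal libraries and the median was -0.56. Psmb9, which met the filter on low values through ventral libraries alone, is counted in these numbers. Of the members, 32 were higher in ventral libraries at an adjusted p under 0.05 and 0 were higher in dorsal libraries (edgeR quasi-likelihood test, p-values adjusted by Benjamini-Hochberg over the whole table), while over all tested genes the shares were 14.6% ventral-higher and 19% dorsal-higher. A gene is called enriched here if it also has a log2 ratio between the group means (each with 1 CPM added) of over 0.58 in size. By this definition 21 members were ventral-enriched and 0 dorsal-enriched, against 9.85% and 15.7% of all tested genes. Every ventral library stood above every dorsal one for 22 members, which was the case for 8.36% of all tested genes. The other 15 tested members did not pass the test.

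**Figure D1:**
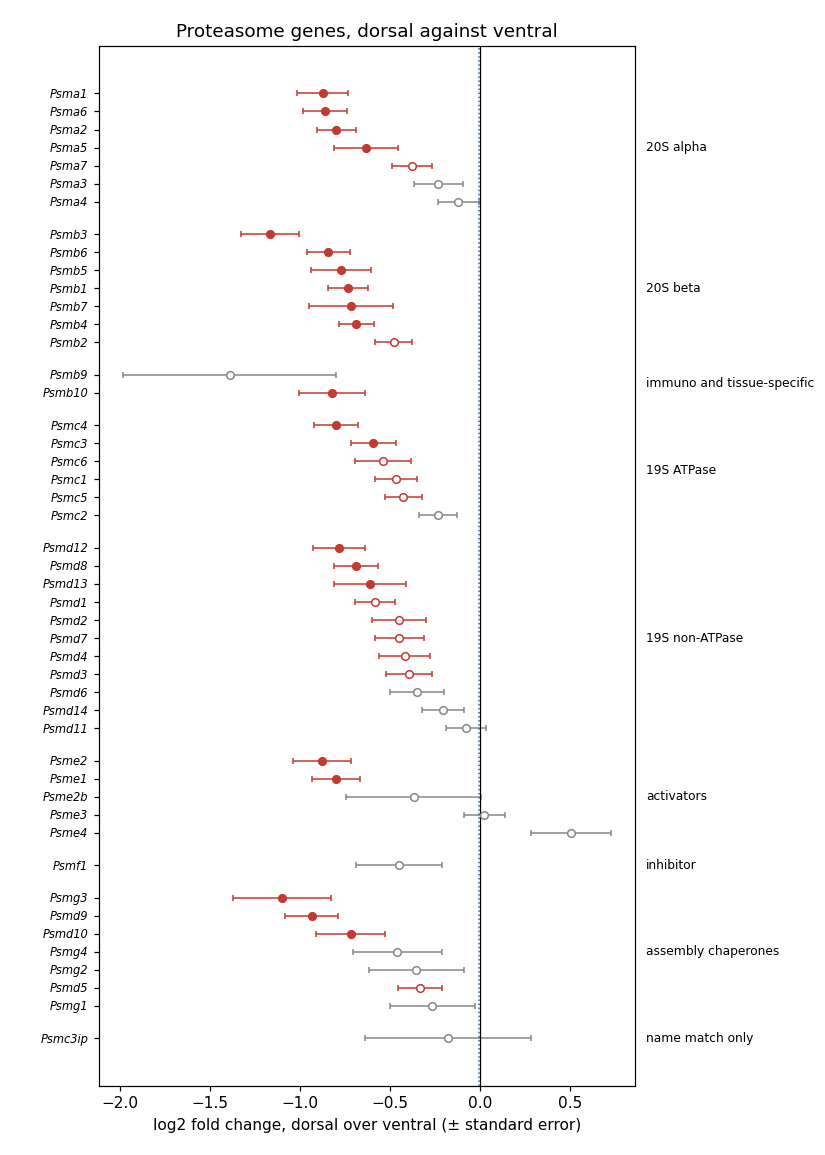
Log2 fold change of dorsal over ventral for the 47 tested members by class, with bars of 1 standard error. Red marks an adjusted p under 0.05, a filled circle an enriched gene, and the dotted line the median of all tested genes. Of the points, 45 lie left of 0, and Psme3 and Psme4 lie to its right.

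Summed over all 50 members, the level was 2971 ± 169 CPM in the dorsal and 4252 ± 165 CPM in the ventral libraries (SD over 5 libraries each). The dorsal sums were 3237, 2967, 2773, 2978 and 2903 CPM and the ventral sums 4356, 4443, 4175, 4017 and 4268 CPM, so that the groups did not overlap. The ventral sum was 1.43 times the dorsal sum. The ratio was 1.52 for the alpha subunits, 1.64 for the beta subunits, 1.40 for the ATPases, 1.37 for the non-ATPase subunits and 1.41 for the assembly chaperones, and 1.07 for the activators. Psma2 alone made up 350 of the mean alpha sum of 823 CPM in dorsal and 607 of 1251 CPM in ventral libraries. The alpha ratio thus depends much on this gene.

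**Figure D2:**
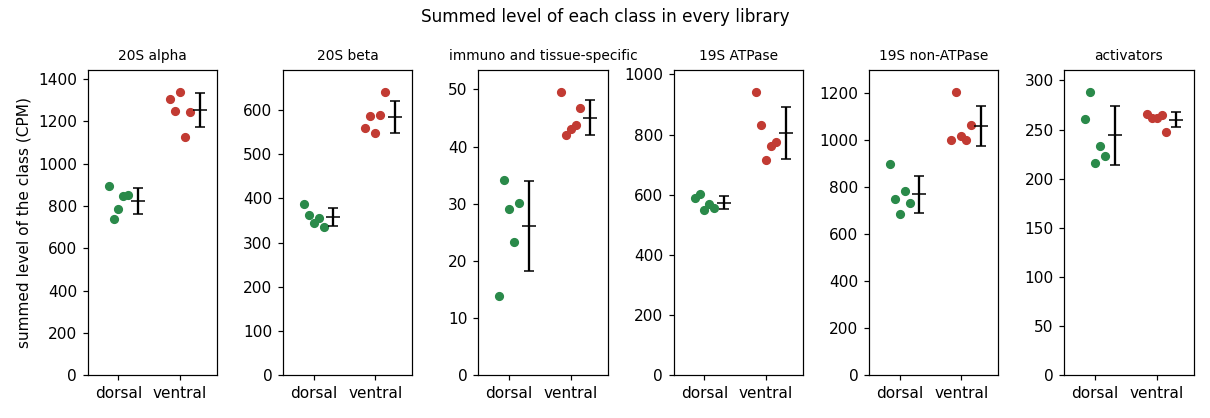
Summed CPM of 6 classes in every library, with points for libraries, a dash for the mean and bars for the SD. The alpha sums run from 739 to 894 CPM in the dorsal and from 1125 to 1336 CPM in the ventral libraries, whereas the activator sums overlap, at 216 to 288 and 247 to 265 CPM.

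The beta subunits of the core, which carry the proteolytic sites, were the class in which every member passed the test. All 7 were higher in ventral libraries and 6 were ventral-enriched, and the median log2 fold change was -0.73. Psmb5, the subunit with chymotrypsin-like activity, measured 13.6, 17.3, 21.7, 18.7 and 18.3 CPM in the dorsal replicates 1 to 5 and 25.9, 37.7, 24.9, 30.7 and 35.2 CPM in the ventral ones. All of its ventral libraries were thus above all dorsal ones, at a log2 fold change of -0.77 ± 0.17 (SE, edgeR adjusted p = 0.00394). Psmb6, with caspase-like activity, measured 60.4, 64.5, 55.1, 68.5 and 58.9 CPM in the dorsal and 89.7, 107, 111, 115 and 128 CPM in the ventral libraries. Its groups did not overlap either, and its ventral mean was 1.79 times the dorsal one (log2 fold change -0.84 ± 0.12, edgeR adjusted p = 0.000246). Psmb7, with trypsin-like activity, measured 34.8, 16.2, 11.4, 19.6 and 15.1 CPM in the dorsal and 32.2, 29.6, 24.0, 33.5 and 34.4 CPM in the ventral libraries. Here the first dorsal replicate was the highest of all 10 libraries, and the difference rested on the other dorsal replicates (log2 fold change -0.71 ± 0.23, edgeR adjusted p = 0.0305). The call held in 15 of 26 alternative analyses. Of the union of Psmb7 exons 11.8% overlap Nek6 and of Psmb5 exons 12.1% overlap Mir686, so that their counts carry that uncertainty.

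The largest log2 fold change of a core subunit, immunoproteasome subunits left out, was that of Psmb3, a structural beta subunit. It measured 13.8, 12.2, 17.8, 15.3 and 14.3 CPM in the dorsal and 31.4, 39.3, 25.8, 35.9 and 32.9 CPM in the ventral libraries. No library overlapped, and the ventral level was 2.24 times the dorsal one (log2 fold change -1.17 ± 0.16, edgeR adjusted p = 0.000221). The least negative beta subunit was Psmb2, at 68.9, 64.0, 75.2, 70.0 and 68.8 CPM in the dorsal and 93.0, 103, 87.2, 93.8 and 106 CPM in the ventral libraries. Its groups did not overlap, but its ratio of 1.39 stayed under the threshold for enrichment (log2 fold change -0.48 ± 0.10, edgeR adjusted p = 0.00342). Psmb1 and Psmb4, the remaining structural beta subunits, stood between these at -0.73 and -0.68 on the log2 scale, and all ventral libraries of both lay above the dorsal ones.

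Among the alpha subunits, which form the outer rings and the gate, 5 of 7 were higher in ventral libraries and 4 were ventral-enriched, and the median log2 fold change was -0.63. Psma1 measured 73.9, 56.3, 43.5, 61.8 and 53.3 CPM in the dorsal and 89.1, 105, 127, 100 and 106 CPM in the ventral libraries. These groups did not overlap (log2 fold change -0.87 ± 0.14, edgeR adjusted p = 0.000671). Psma2 and Psma6 were close to it, at -0.80 and -0.86, also with no overlap. Psma5 was enriched at -0.63 with overlapping groups, since its first dorsal replicate reached 56.2 CPM and its lowest ventral replicate 53.8 CPM. Psma7 passed the test at -0.37 without reaching the fold threshold. Psma3 (-0.23, edgeR adjusted p = 0.202) and Psma4 did not pass. Psma4 measured 122, 119, 116, 128 and 117 CPM in the dorsal and 157, 143, 104, 125 and 124 CPM in the ventral libraries. Its dorsal values lay inside the ventral range (log2 fold change -0.12 ± 0.11, edgeR adjusted p = 0.444).

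In the 19S particle 13 of 17 tested subunits were higher in ventral libraries and 5 were ventral-enriched, and the median log2 fold change was -0.45, against 12 of 14 and -0.72 in the core. These are counts and medians of genes in the same libraries, and the difference between core and 19S particle was not tested. The ATPases, which unfold the substrate, had 5 of 6 past the test. Psmc4 was the most negative, with 47.6, 41.9, 50.3, 45.6 and 38.5 CPM in the dorsal and 76.7, 71.2, 68.0, 81.7 and 89.9 CPM in the ventral libraries. Its groups did not overlap (log2 fold change -0.80 ± 0.12, edgeR adjusted p = 0.000408). Psmc3 was the other enriched ATPase at -0.59, also without overlap, and 8.25% of its exons overlap Slc39a13. Psmc1, Psmc5 and Psmc6 passed the test at -0.46, -0.43 and -0.54 and were under the fold threshold. Psmc2 was the one that did not pass, with 51.3, 59.2, 58.2, 51.2 and 52.6 CPM in the dorsal and 68.5, 65.9, 56.7, 65.9 and 62.9 CPM in the ventral libraries. Of these, the third ventral replicate lay within the dorsal range (log2 fold change -0.23 ± 0.11, edgeR adjusted p = 0.108).

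The non-ATPase subunits hold the ubiquitin receptors, the scaffold and the lid, and 8 of 11 were higher in ventral libraries, 3 of them enriched (Psmd12, Psmd8 and Psmd13). Psmd12, a lid scaffold subunit, measured 131, 89.5, 78.8, 103 and 96.2 CPM in the dorsal and 157, 202, 200.02, 152 and 147 CPM in the ventral libraries. All ventral libraries stood above the dorsal ones (log2 fold change -0.78 ± 0.14, edgeR adjusted p = 0.00145). Psmd8 had a log2 fold change of -0.69 without overlap, and Psmd13 one of -0.61 with overlap, where 10.1% of exons overlap Sirt3. Psmd1, the large scaffold of the base, passed the test at -0.58 without overlap (7.61% of its exons overlap other genes) and Psmd2, the other large scaffold, at -0.45 with overlap. The ubiquitin receptor Psmd4 and the lid subunits Psmd3 and Psmd7 passed the test at -0.42, -0.39 and -0.45, and the calls of Psmd2, Psmd3, Psmd4 and Psmd13 held in 17, 17, 14 and 17 of 26 alternative analyses. Psmd14, the deubiquitinase that removes the ubiquitin chain before degradation, did not pass. It measured 118, 101, 80.0, 106 and 95.2 CPM in the dorsal and 123, 110, 128, 107 and 108 CPM in the ventral libraries. The highest dorsal library lay inside the ventral range (log2 fold change -0.20 ± 0.12, edgeR adjusted p = 0.188). Psmd6 (-0.35, edgeR adjusted p = 0.0836) and Psmd11 also did not pass. Psmd11, a lid scaffold, measured 72.0, 69.8, 77.2, 75.0 and 73.9 CPM in the dorsal and 70.9, 92.0, 66.7, 76.6 and 82.0 CPM in the ventral libraries. Its dorsal libraries spanned less than its ventral ones, inside the same range (log2 fold change -0.076 ± 0.11, edgeR adjusted p = 0.628).

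**Figure D3:**
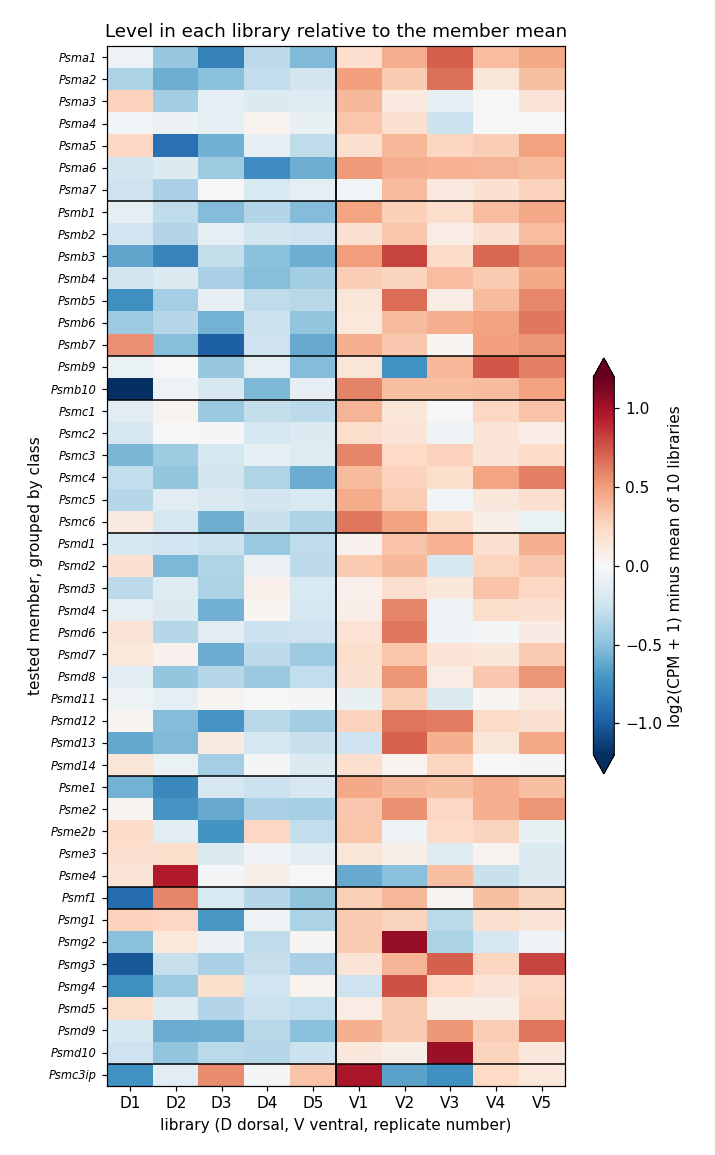
Log2(CPM + 1) of each tested member in each library, minus the member's mean over the 10 libraries, with classes parted by lines. Red is above the mean and blue below it. Ventral columns are red and dorsal columns blue for most core and 19S subunits, and the second dorsal library of Psme4, at 91.2 CPM, stands out.

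The immunoproteasome subunits replace the catalytic beta subunits in cells exposed to interferon. Psmb10, which takes the place of Psmb7, measured 12.5, 30.5, 27.8, 21.6 and 29.6 CPM in the dorsal and 48.6, 41.2, 41.2, 41.8 and 44.8 CPM in the ventral libraries. All ventral libraries stood above all dorsal ones (log2 fold change -0.82 ± 0.18, edgeR adjusted p = 0.00440). Psmb9, which takes the place of Psmb6, was near the counting floor at 0.564, 0.650, 0.204, 0.541 and 0.157 CPM in the dorsal and 0.832, 0, 1.18, 1.77 and 1.51 CPM in the ventral libraries. The ventral group held both the highest values and the lowest, and the difference did not pass the test (log2 fold change -1.39 ± 0.59, edgeR adjusted p = 0.0739). Without the second ventral replicate, which had 0 counts of Psmb9, the edgeR adjusted p was 0.0164. Psmb9 met the filter on low values only through ventral libraries, since no dorsal library reached 1 CPM, and such a gene had to differ in that direction, so that neither p is support for a difference. Of Psmb9 exons 5.79% overlap Tap1. Psmb8, which takes the place of Psmb5, did not pass the filter on low counts, at 0.564, 0.520, 0.954, 0.721 and 0.236 CPM in the dorsal and 0.0555, 0.704, 0.675, 0 and 0.330 CPM in the ventral libraries. It was under 1 CPM in every library, and 14.7% of its exons overlap Gm20496.

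Per kilobase of exon, Psmb8 made up 0.341 to 1.15% of the sum of Psmb8 and Psmb5 in dorsal libraries and 0 to 0.716% in ventral libraries. Psmb9 made up at most 0.512% of its sum with Psmb6 in dorsal and at most 0.781% in ventral libraries. Psmb10 made up 41.9, 79.1, 83.0, 68.9 and 79.8% of its sum with Psmb7 in the dorsal and 75.2, 73.6, 77.5, 71.5 and 72.4% in ventral libraries. Its share was thus far above those of Psmb8 and Psmb9 in both regions, and the low dorsal value came from the first replicate. The size of this share depended on the assigned length, since per kilobase of the principal transcript it was 24.1 to 68.2% in the dorsal and 52.5 to 60.3% in the ventral libraries. Markers of microglia, cells in which immunoproteasome genes are active, summed to 28.1 to 43.5 CPM in the dorsal and 20.6 to 43.7 CPM in the ventral libraries, with 1 of 8 markers dorsal-higher and 0 ventral-higher and none at 0 in its group mean. The part of microglial RNA in the Psmb8, Psmb9 and Psmb10 counts was not tested. Psma8, an alpha subunit of the testis, had 34 counts in the second dorsal library and 0 to 2 in the others, and Psmb11, of the thymus, 0 to 6 counts in each library, so that neither was tested.

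The activators bind the core in place of the 19S particle, and 2 of 5 passed the test, both as ventral-higher. Psme1 and Psme2 form the interferon-inducible ring. Psme1 measured 25.2, 21.6, 32.7, 31.3 and 32.9 CPM in the dorsal and 52.0, 49.6, 48.6, 51.4 and 48.7 CPM in the ventral libraries (log2 fold change -0.80 ± 0.14, edgeR adjusted p = 0.000860). Psme2 measured 21.9, 12.7, 13.8, 16.2 and 16.03 CPM in the dorsal and 27.1, 31.9, 25.8, 29.3 and 31.6 CPM in the ventral libraries (log2 fold change -0.88 ± 0.16, edgeR adjusted p = 0.00144). Both were enriched with no overlap, and their ventral means were 1.74 and 1.84 times the dorsal ones. Psme2b, a gene very similar to Psme2 that lies on another chromosome, was at 0.750 to 2.40 CPM in the dorsal and 1.70 to 2.61 CPM in the ventral libraries, and did not pass. Reads that fit Psme2 and Psme2b equally well could be split or lost, so both values are uncertain.

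Psme3, which forms a nuclear ring of its own, measured 159, 161, 123, 134 and 126 CPM in the dorsal and 153, 146, 125, 143 and 124 CPM in the ventral libraries. Its groups covered almost the same range (log2 fold change 0.025 ± 0.11, edgeR adjusted p = 0.887). Psme4, the large single-chain activator, was the only tested member with a log2 fold change above that of Psme3. It measured 52.0, 91.2, 46.1, 49.1 and 46.4 CPM in the dorsal and 30.3, 32.5, 60.2, 38.5 and 41.5 CPM in the ventral libraries. A single high dorsal replicate and a single high ventral replicate set the spread, and the difference did not pass the test (log2 fold change 0.50 ± 0.22, edgeR adjusted p = 0.0932). Without the second dorsal replicate the log2 fold change of Psme4 was 0.26, and without the third ventral replicate it was 0.67 with an adjusted p of 0.0290. Psmf1, an inhibitor of the core in the test tube, measured 7.53, 23.4, 13.3, 11.8 and 10.6 CPM in the dorsal and 18.7, 20.3, 15.5, 19.7 and 18.6 CPM in the ventral libraries. The second dorsal replicate was the highest of all, and the test was not passed (log2 fold change -0.45 ± 0.24, edgeR adjusted p = 0.160). Without that replicate the edgeR adjusted p of Psmf1 was 0.00793.

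The assembly chaperones build the complex and leave it. Psmg1 and Psmg2 pair to guide the alpha ring, as do Psmg3 and Psmg4, and Psmd5, Psmd9 and Psmd10 hold the ATPases during assembly of the base. Of these 7, 4 were higher in ventral libraries and 3 enriched. Psmg3 measured 1.88, 3.83, 3.48, 3.84 and 3.46 CPM in the dorsal and 5.49, 6.78, 8.61, 6.01 and 9.25 CPM in the ventral libraries. Its groups did not overlap (log2 fold change -1.10 ± 0.27, edgeR adjusted p = 0.00805), although 9.68% of its exons overlap Gm26938. Psmg1 measured 11.01, 10.7, 5.11, 8.47 and 6.60 CPM in the dorsal and 11.3, 10.9, 6.92, 10.3 and 10.01 CPM in the ventral libraries. These values overlapped (log2 fold change -0.26 ± 0.24, edgeR adjusted p = 0.410), and so did those of Psmg2 (-0.35) and Psmg4 (-0.46), which did not pass. Psmd9 and Psmd10 were enriched at -0.93 and -0.72 without overlap, but 25.5% of Psmd9 exons overlap Gm26745, and the third ventral replicate of Psmd10 reached 62.3 CPM while the others stood at 31.4 to 36.3 CPM. Psmd5 passed at -0.33 (edgeR adjusted p = 0.0479), and its call held in 6 of 26 alternative analyses. Psmc3ip, the gene matched by name, was at 0.929 to 5.33 CPM and did not pass (edgeR adjusted p = 0.795).

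The enriched members lay on many chromosomes. Only 3 pairs of members were closer than 50 kb to each other, and they had no common pattern. Psme1 (chr14:55578123-55581529, plus strand) and Psme2 (chr14:55587441-55591113, minus strand), 5911 bases apart, were both ventral-enriched. Psmb5 (chr14:54614119-54618022, minus strand) was ventral-enriched next to the untested Psmb11. Psmb9 (chr17:34181987-34187764, minus strand) and Psmb8 (chr17:34197721-34201454, plus strand) lay in the major histocompatibility region and were both close to the counting floor. These are gene spans in GRCm38 that include exons, introns and UTRs. Subunit genes also have processed copies in the genome, and the 4 annotated copies named for Psmb5, Psmb6 and Psmb7 had 0 to 14 counts each over all libraries, so that reads shared with a copy could have been lost.

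Levels of different genes were compared per kilobase of the union of exons. On this scale the members spanned more than an order of magnitude even among the subunits of the core and the 19S particle. Psmc5, an ATPase, was the highest, at 137 CPM per kilobase in dorsal and 184 in ventral libraries, followed by Psma2 (95.2 and 165), Psmb2 (57.6 and 80.2) and Psmb4 (51.1 and 81.9). Of the core and 19S subunits, immunoproteasome and tissue-specific ones left out, Psmb7 (5.68 and 8.98), Psmd3 (6.10 and 8.04), Psmd13 (6.20 and 9.65) and Psmb3 (6.38 and 14.4) were the lowest. The assigned length mattered for single genes, since Psma7 ranked 13 of 50 by the union of exons and 3 by its principal transcript, a length chosen after seeing the data. Psmc5 and Psma2 ranked 1 and 2 by either length. The untested Psmb8 and Psmb11 and the barely detected Psmb9 ranked 47 to 50 by either length, together with Psma8.

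**Figure D4:**
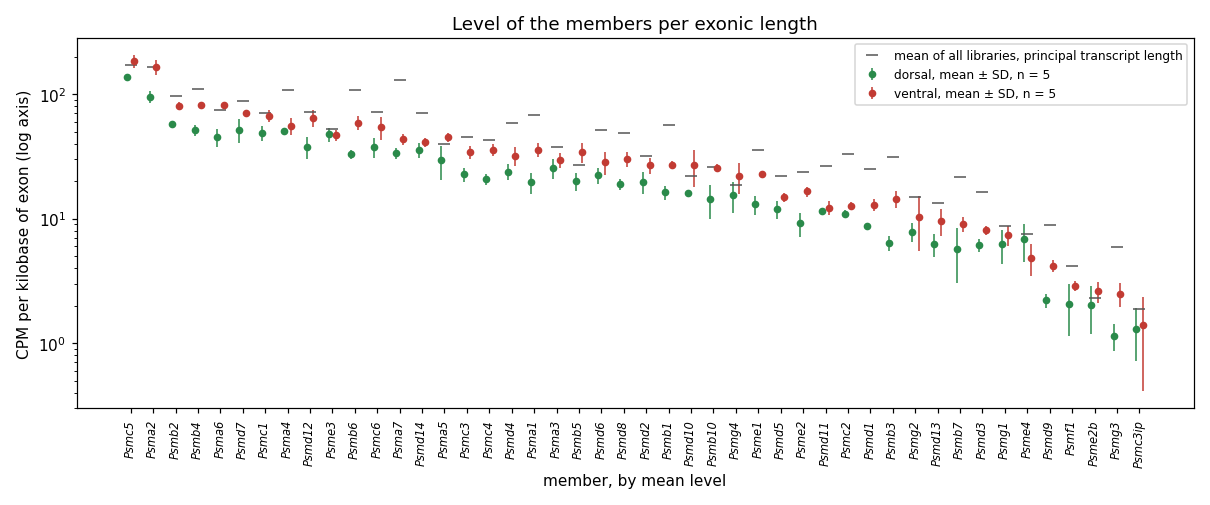
Mean level with SD (n = 5 libraries) in CPM per kilobase of exon on a log axis, for the members above 1 on average, in the order of their mean. Grey dashes give the mean over all libraries per kilobase of the principal transcript. Psmc5 and Psma2 head both scales, and ventral points lie above dorsal points for all but Psme3 and Psme4.

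The transcripts of proteasome subunits are short, and the shares of ventral-higher genes are therefore given by length. The median principal transcript was 1387 bases for members and 3151 bases for other tested protein-coding genes, while GC content was alike (49.7% and 49.5%). The tested protein-coding genes were divided by length into 4 bins of equal size. In the shortest bin 24.9% of the other genes were ventral-higher, with a median log2 fold change of -0.26, and in the longest bin 8.42%, with a median of 0.15. In the shortest bin 25 of 35 members were ventral-higher, with a median of -0.63, and in the second 6 of 9. The members were also more abundant, at a median of 74.2 CPM against 18.6 CPM. In the most abundant of 4 such bins of mean CPM 20.6% of the other genes and 19 of 25 members were ventral-higher.

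A correction for GC content and length was made by a smooth trend in each library. Its length was that of the union of exons, not of the principal transcript used for the bins. The correction left 45 of 47 members negative and moved the median of the members to -0.44, where that of all tested genes was 0.00025. Of the 32 ventral-higher members 28 passed under the correction, and the calls of Psma7, Psmd3, Psmd4 and Psmd13 were lost. Over all tested genes 15.8% were ventral-higher in that fit. Psma3, Psmc2, Psmd6 and Psmd14 did not pass without the correction and passed with it, at log2 fold changes of -0.38, -0.34, -0.37 and -0.27. Psmc6 changed from -0.54 to -1.06. All 7 beta subunits passed, with a median of -0.70.

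**Figure D5:**
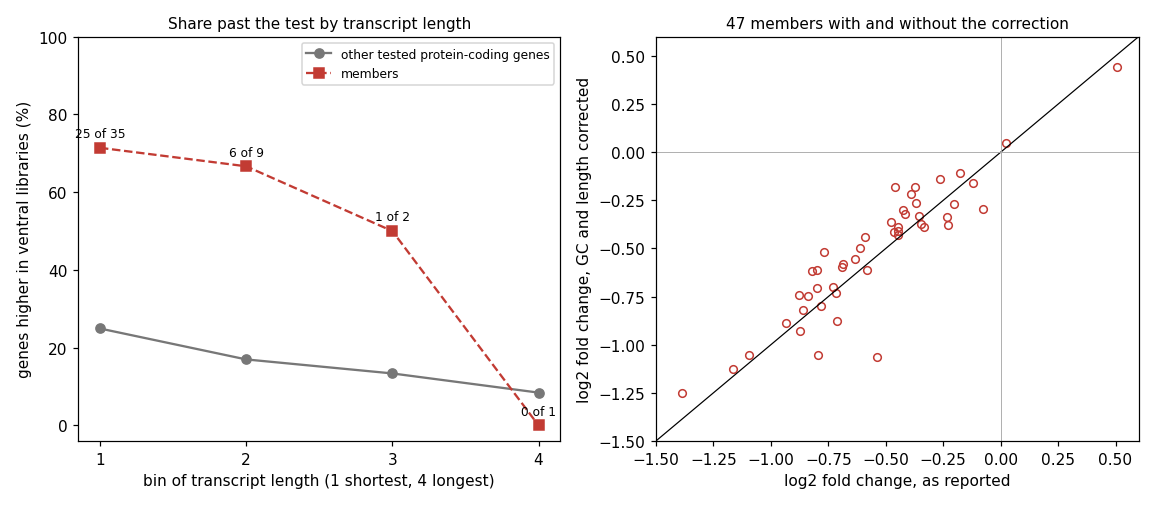
Left, percent of genes higher in ventral libraries in 4 bins of principal transcript length (1 the shortest), with the number of members written at each point. Right, log2 fold change of the 47 members as reported and after the GC and length correction (length of the union of exons), with the line of equal values. Other genes fall from 24.9% in the shortest bin to 8.42% in the longest, and on the right Psmc6 lies farthest below the line, at -1.06.

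The share of read pairs on no gene separated the groups in the same way as region, and so did the summed level of mitochondrially encoded mRNAs (2975 ± 305 CPM in the dorsal and 784 ± 296 CPM in the ventral libraries, p = 0.00794 by the same exact test). These mitochondrial sums were scaled by the total count on genes alone, without TMM factors. With the share on no gene as a covariate, 37 of 47 members were negative, 36 of them also without it, the median was -0.40, and 5 members passed the test: Psma2 (-0.77), Psma6 (-0.91), Psmb4 (-0.72), Psmb10 (-1.32) and Psmd10 (-1.21). In that fit 2.34% of all tested genes were ventral-higher, and 10 members had log2 fold changes above 0, among them Psma5, Psmb7, Psmd2 and Psmd4, which had passed without the covariate. Because the share does not overlap between the groups, region and this library property cannot be told apart. The part of cell composition in the difference was not tested.

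Promoter sequences were read to see whether members that moved together shared a motif. RefSeq windows on GRCm38.p6, of 250 bases before and 50 after each start, were matched by symbol to 42 of 50 members and not used here for Psma8, Psmb1, Psmb2, Psmb7, Psmc3, Psmd3, Psmd7 and Psmg2. The antioxidant response element, searched as TGACNNNGC on both strands, was in the windows of 6 of these 42 genes, or 14.3%, against 14.0% of all genes with a window and 16.9% of the 10609 tested genes with one. It was present in catalytic subunits and in members of other classes, and 5 of its 6 members passed the test as ventral-higher, as did 21 of the 34 tested members whose window lacked it. The exception among the 6 was Psme4. The match of Psme4 reaches past the transcription start and is not printed. The matches of the other 5 members are shown here with flanking bases on the gene's strand and the match in capitals. They are shown because Nfe2l1 is known to act through this element.
Psmb5, chr14:54618016-54618060, minus strand: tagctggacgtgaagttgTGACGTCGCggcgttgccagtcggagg
Psmb6, chr11:70525330-70525356, plus strand: gaggcggactaaagagagTGACGGAGC
Psmc6, chr14:45329579-45329623, plus strand: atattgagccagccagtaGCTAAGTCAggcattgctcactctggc
Psmd9, chr5:123228141-123228185, plus strand: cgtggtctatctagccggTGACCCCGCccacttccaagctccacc
Psmd12, chr11:107479278-107479307, plus strand: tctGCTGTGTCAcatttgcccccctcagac
The share of members with the match was near that of all genes. A match is a string of letters and no proof of binding. Matches of the 3 different motifs overlapped each other in 0 places in the windows of the members.

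The CCAAT box, searched as CCAAT on both strands, was in 15 of 42 members (35.7%) and in 41.1% of all genes. The ETS core, searched as CCGGAAG on both strands, was in 15 of 42 members (35.7%) against 9.93% of all genes and 18.6% of the tested genes. Of the 15 members with it, 8 were ventral-higher, with a median log2 fold change of -0.42, and of the 25 tested members whose window lacked it 18 were ventral-higher, with a median of -0.69. It was found in windows of enriched members (Psma6, Psmd12) and of members that did not pass (Psmd6, Psme4), as these matches show, with the motif or its reverse complement in capitals.
Psma6, chr12:55398675-55398717, plus strand: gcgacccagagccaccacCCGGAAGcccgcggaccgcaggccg
Psmd12, chr11:107479493-107479527, plus strand: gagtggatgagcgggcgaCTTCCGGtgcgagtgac
Psmd6, chr14:14120966-14121008, minus strand: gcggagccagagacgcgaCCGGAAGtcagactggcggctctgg
Psme4, chr11:30771704-30771746, plus strand: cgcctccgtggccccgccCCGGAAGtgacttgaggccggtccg

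Of 33 partners of the proteasome and genes of the ubiquitin system that the name rule leaves out, 31 were tested. Of these, 10 were higher in ventral libraries and 0 in dorsal libraries, against 14.6% and 19% of all tested genes. Of the 31, 4 were ventral-enriched, against 9.85% of all tested genes, and these shares were not tested against each other. The median log2 fold change of the 31 was -0.29, against -0.0044 over all tested genes. The most negative were Sqstm1, an autophagy receptor for ubiquitin-tagged cargo, Ubb, a ubiquitin gene, and Adrm1, a ubiquitin receptor of the 19S particle. Sqstm1 stood at 643 ± 78.0 CPM in the dorsal and 1949 ± 138 CPM in the ventral libraries (SD over 5 libraries each), a log2 fold change of -1.60 ± 0.097 (SE, edgeR adjusted p = 8.28e-07). Of Sqstm1 exons 17.3% overlap Mrnip. Ubb had a log2 fold change of -0.73 and Adrm1 one of -0.69, and Uba6, an enzyme that activates ubiquitin, was the fourth enriched gene at -0.63. Among the genes that passed the test without enrichment were Sem1 (a 19S subunit), Uba1 (the main activating enzyme), Usp14 (a deubiquitinase on the 19S particle), Txnl1 and Zfand2a, and 25.99% of Usp14 exons overlap another gene. Nfe2l1 stood at 171 ± 11.9 CPM in the dorsal and 161 ± 18.1 CPM in the ventral libraries and did not pass (log2 fold change 0.085 ± 0.10, edgeR adjusted p = 0.554). Pomp, which matures the core, also did not pass (-0.18, edgeR adjusted p = 0.242), nor did Vcp, the segregase that hands over substrates (-0.18).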

How the data were processed

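The deposited values are whole-number counts of read pairs per Ensembl gene, 1 file per library, which the authors made by aligning 50 bp paired ends to GRCm38 with STAR 2.5.2b and counting with HTSeq 0.7.2, after amplifying 500 pg of RNA. The annotation release and the strand setting are not given in the sources used here, so shared exons are reported as uncertain. Symbols came from GENCODE, which matched 54809 of 54838 identifiers. Counts were tested in R 4.3.3 with edgeR 4.0.16: CPM above 1 in at least 2 libraries, TMM, the quasi-likelihood test of dorsal against ventral with no covariate, and Benjamini-Hochberg adjustment over 16806 genes. The standard error of a log2 fold change was derived from it and the F statistic. Exact permutation tests compared single library measures. Replicates within a group are pools of mice, and p-values measure the spread between these pools. Dorsal and ventral pools came from a shared set of animals, which the fit without a block does not use. Every pair of libraries within a group differed by more than sampling noise (chi-square of at least 4.70 per degree of freedom). Classes, lists and members were chosen with earlier results of these data known. Values in every library were given by a rule for the catalytic and immunoproteasome subunits, Psmd14, Psme1, Psme2, Psme3, Psme4, the inhibitor and the extremes of each class, and every member is named. The fit was tested on simulated data with 16078 genes, of which 200 were changed by 0.8 on the log2 scale. It recovered 40.5% of the changed genes, with 8 false calls. In the real data 14.6% of the tested genes were ventral-higher and 19.0% dorsal-higher, a far larger share than was changed in the simulation. The Benjamini-Hochberg adjustment depends on this share, so the recovered percent is not the power of the reported test. Alternatives were other scalings, filters and tools (DESeq2 1.42.0, likelihood ratio), a stricter adjusted p, a replicate block, a GC and length correction with mgcv 1.9.3, gene subsets, a covariate and each library left out. The dispersions of edgeR 3 and the principal transcript length were added after seeing the data. The amplified reads carry no molecular identifiers, so floors cover counting error alone. Promoter windows were RefSeq's, and protein sequences were not used here. A gene of the wider list is not reported here by name.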

Additional observations from a re-analysis of the deposited data

Results flagged for a closer look

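In 7 of 114 groups of 5 libraries checked, over the members and their summed classes, the highest or lowest library stood apart by Dixon's criterion, where chance alone marks about 1 in 20 groups. These were Psmc3 in the first ventral library (108.806 CPM, high), Psmd2 in the third ventral library (80.2116 CPM, low), Psme4 in the second dorsal library (91.2128 CPM, high), Psmg1 in the third ventral library (6.92353 CPM, low), Psmg3 in the first dorsal library (1.88164 CPM, low), Psmd10 in the third ventral library (62.3118 CPM, high) and the summed activators in the fifth ventral library (247.098 CPM, low). The third ventral library was the lowest of its group for 22 of 47 members, and the first dorsal library was the highest of its group for 18. The former had the highest ventral share of read pairs on no gene (19.3%) and the latter the lowest dorsal share (21.8%). The third dorsal library, with the highest share (33.9%), was the lowest for 17 members. The first ventral library, with the lowest share (11.6%), was the highest for 15 and the lowest for 10. A relation between share and member levels within groups was not tested.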

How the results depend on the processing

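Among the values of single members under 26 alternatives, 1096 kept their direction and their side of the threshold, 100 lost the call in the same direction, 10 gained it and 15 changed sign. Of these 15, 10 arose with the share on no gene as covariate and 5 when a library was left out (Psme3 in 4 fits and Psmc3ip in 1), and 11 were of members that passed in neither fit. The median log2 fold change of the members lay between -0.58 and -0.49 when each library was left out in turn, and ventral-enriched members then numbered 18 to 21, ventral-higher members 24 to 33, dorsal-enriched members 0 to 1 and dorsal-higher members 0 to 1, where the 1 was Psme4 without the third ventral replicate. The wider list had 5 to 11 ventral-higher genes, with 6 without the fifth dorsal and 5 without the fourth ventral replicate. Without an expression filter all 50 members were tested, the median was -0.47 (0.11 over all genes) and 1 member was dorsal-higher, Psma8, which rests on 1 library. At an adjusted p under 0.01, 21 members and 5 genes of the wider list were ventral-higher, against 6.52% of all tested genes. Under the GC and length correction the median was -0.44. With the share on no gene as covariate, 5 members were ventral-enriched and 5 ventral-higher, against 2.02% and 2.34% of all tested genes. In that fit the median was -0.40 and the wider list had 2 ventral-higher genes. The sign changed for the called members Psma5 (0.0087), Psmb7 (0.41), Psmd2 (0.20) and Psmd4 (0.067), and the cause was not tested. With the replicate block the median was -0.53, with 21 enriched and 31 ventral-higher members, against 9.96% and 14.2% of all tested genes. With the replicate block and the GC and length correction together it was -0.51, with 18 and 29, against 9.56% and 15.1%. Libraries with the same number correlated at -0.032 to 0.069, so the data do not show that equal numbers share animals. The dispersions of edgeR 3, added after seeing the data, kept 30 of the 32 ventral-higher members, where 12.4% of all tested genes were ventral-higher. Calls of Psmb7, Psmd2, Psmd3, Psmd4, Psmd5, Psmd7 and Psmd13 were lost in several fits that left out a library, and Psma3 and Psmd6 passed without the first dorsal replicate (edgeR adjusted p = 0.0477 and 0.0375).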
